A study of Homo sapiens with 10 samples.

Results

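Collagens are the proteins of the triple helix that make up most of the fibres and sheets of the extracellular matrix. The collagen genes were taken by symbol, as COL, a number, A and a number with nothing after, and 44 of the 42335 genes in the deposited table met that rule. By the standard grouping of the family, 11 were fibrillar collagens, 6 were the type IV collagens of basement membranes and 27 belonged to other classes. The last group held 10 FACIT collagens, which sit on fibril surfaces, 5 beaded filament chains of type VI, 4 transmembrane, 3 network, 2 multiplexin and 2 unclassed collagens, and the anchoring fibril gene COL7A1.

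RNA was sequenced from H9 cells, an established human embryonic stem cell line, as they were differentiated towards neural cells. The line labelled SOX1-OT V1 PAKI (V1PAKI) and the wild-type line (Ctrl) each gave 1 library at 5 stages, d0, d4, d10, d16D and d16V. What PAKI, D and V stand for is not spelled out in the labels, nor whether V1PAKI was 1 clone. Both lines went through the same culture, as embryoid bodies in suspension with neural medium from day 4 and attachment at day 7, and cells for ventral telencephalon received 200 ng/ml of Sonic hedgehog protein and 1.5 µM of its pathway agonist SAG from day 10.

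Collagen chains are hydroxylated in the endoplasmic reticulum and wind there into trimers, which are secreted and then assembled into fibrils, networks or filaments according to class. Fibrillar types I, III and V are made mainly by mesenchymal cells, type II is the fibril of cartilage and is also made by the embryonic notochord and neuroepithelium, and type IV forms the sheet under every epithelium, the neuroepithelium included. The 6 type IV genes lie in head-to-head pairs, COL4A1 with COL4A2, COL4A3 with COL4A4 and COL4A5 with COL4A6, so that partners are transcribed away from a shared region.

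The start regions of both expressed type IV pairs are shown because the stage changes that passed the test fell mostly in 1 of them. Each window is from RefSeq (GRCh38.p14), runs from 250 bases before to 50 bases after the gene's start, and is written 5′ to 3′ on the gene's own strand. Capitals mark the stretch that a gene's window shares with its partner's, read there on the opposite strand. COL4A1 lies at chr13:110307108-110307407 on the minus strand, COL4A2 at chr13:110307034-110307333 on the plus strand, COL4A6 at chrX:108439409-108439708 on the minus strand and COL4A5 at chrX:108439588-108439887 on the plus strand.
COL4A1: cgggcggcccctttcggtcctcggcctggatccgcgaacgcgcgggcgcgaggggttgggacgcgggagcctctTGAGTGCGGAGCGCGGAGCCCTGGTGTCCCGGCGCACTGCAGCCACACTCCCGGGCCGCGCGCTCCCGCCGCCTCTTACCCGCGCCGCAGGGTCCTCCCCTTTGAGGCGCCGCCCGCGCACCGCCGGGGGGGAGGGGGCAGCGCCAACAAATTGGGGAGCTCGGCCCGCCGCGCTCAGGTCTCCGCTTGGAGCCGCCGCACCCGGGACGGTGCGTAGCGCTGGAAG
COL4A2: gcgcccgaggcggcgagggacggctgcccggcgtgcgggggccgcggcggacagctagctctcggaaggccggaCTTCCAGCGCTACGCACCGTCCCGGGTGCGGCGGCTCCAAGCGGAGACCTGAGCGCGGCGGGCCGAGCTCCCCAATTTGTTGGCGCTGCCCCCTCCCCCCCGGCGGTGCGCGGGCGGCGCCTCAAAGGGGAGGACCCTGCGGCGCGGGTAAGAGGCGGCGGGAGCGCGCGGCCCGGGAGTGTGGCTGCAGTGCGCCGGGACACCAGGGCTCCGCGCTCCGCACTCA
COL4A6: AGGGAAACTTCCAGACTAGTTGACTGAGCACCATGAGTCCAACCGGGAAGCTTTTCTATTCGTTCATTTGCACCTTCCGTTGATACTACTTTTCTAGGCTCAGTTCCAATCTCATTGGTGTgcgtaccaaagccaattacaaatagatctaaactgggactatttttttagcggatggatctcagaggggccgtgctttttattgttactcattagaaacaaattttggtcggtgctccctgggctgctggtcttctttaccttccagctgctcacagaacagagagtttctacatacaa
COL4A5: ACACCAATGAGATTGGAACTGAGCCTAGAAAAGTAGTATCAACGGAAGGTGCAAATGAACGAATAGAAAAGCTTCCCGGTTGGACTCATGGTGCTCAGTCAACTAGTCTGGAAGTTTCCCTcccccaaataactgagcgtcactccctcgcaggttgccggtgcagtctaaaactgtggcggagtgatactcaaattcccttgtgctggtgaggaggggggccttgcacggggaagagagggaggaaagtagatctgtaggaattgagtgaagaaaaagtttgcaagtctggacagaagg

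The starts of COL4A1 and COL4A2 were 127 bases apart, and their windows shared 226 bases with a GC content of 76.5%. Those of COL4A6 and COL4A5 were 380 bases apart and shared 121 bases with a GC content of 44.6%. For COL4A6 the start entry nearest to the COL4A5 start was taken, so the distance and the shared stretch depend on that choice. The FPKM values are per gene and not per start. The 4 windows held 45, 45, 7 and 8 CpG dinucleotides in the order printed, against a median of 14 over the 35116 promoter windows of the table. The letters GGGCGG, the GC box, were found on either strand 2 times in the COL4A1 window, 1 time in the COL4A2 window and not in the COL4A6 and COL4A5 windows, and 45.0% of all windows held them. CCAAT was found 1, 1, 3 and 2 times in that order (34.6% of all windows), and TATAAA in none of the 4 (11.5% of all windows). A base could count towards more than 1 motif, and a match describes the letters alone. Of the 44 genes, 32 had an entry among these windows.

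All values are FPKM, fragment counts scaled both to transcript length and to the library's size, so levels can be compared between genes. Depth per library could not be recovered from the values, and FPKM summed to between 200509 and 256270 per library. All 6 pluripotency markers were at 1 FPKM or more in both d0 libraries, and all 8 neural progenitor markers were at 1 FPKM or more in the 4 day 16 libraries. All 6 pluripotency markers also reached 1 FPKM in V1PAKI d16D, and 6 of the 8 neural progenitor markers did in both d0 libraries. These counts alone thus do not separate the stages. SOX1-OT, the gene named in the genotype label, had 0.212 FPKM in V1PAKI against 1.87 FPKM in Ctrl at d16D, and 1.22 FPKM in V1PAKI against 3.51 FPKM in Ctrl at d16V, lower in V1PAKI both times. Its V1 transcript has no value of its own.

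**Figure D1:**
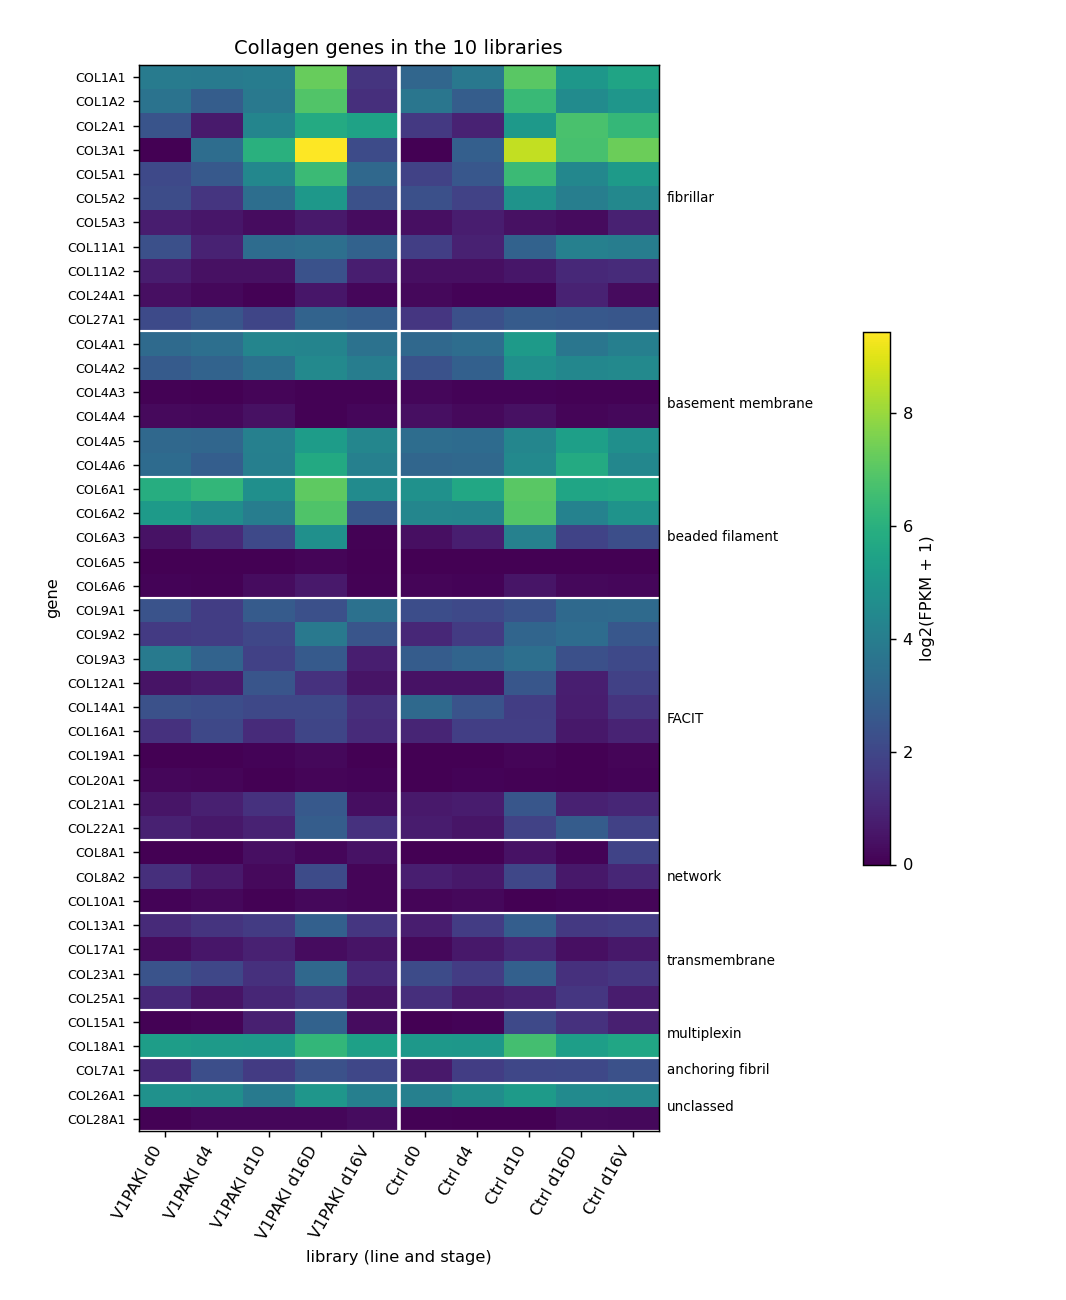
Level of each of the 44 collagen genes (rows, grouped by class) in the 10 libraries (columns, V1PAKI left of Ctrl, 1 library each), as log2(FPKM + 1). The brightest cells are COL3A1 in V1PAKI d16D (701 FPKM) and in Ctrl d10 (379 FPKM), and COL4A3 and COL4A4 are dark in every library.

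Summed over the 44 genes, collagen transcripts were most abundant in V1PAKI at d16D and in Ctrl at d10. The sums were 271, 266, 338, 1746 and 251 FPKM in V1PAKI and 186, 226, 1314, 614 and 662 FPKM in Ctrl at d0, d4, d10, d16D and d16V. V1PAKI was therefore 0.257 times the Ctrl sum at d10, 2.84 times at d16D and 0.378 times at d16V. As a share of all FPKM in a library, collagens made up 0.829% in V1PAKI d16D against 0.290% in Ctrl d16D, and 0.159% in V1PAKI d10 against 0.570% in Ctrl d10. With 1 library per line and stage none of these ratios has a replicate, and in bulk RNA fewer cells of a type and less RNA per cell cannot be told apart.

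The 3 classes took part in this unequally. Fibrillar sums were 45.7, 43.1, 153, 1163 and 75.9 FPKM in V1PAKI and 33.3, 39.3, 753, 321 and 391 FPKM in Ctrl over the stages. Type IV sums were 31.4, 30.9, 61.8, 128 and 61.7 FPKM in V1PAKI and 29.8, 33.0, 100.1, 124 and 81.5 FPKM in Ctrl. The other classes summed to 194, 192, 123, 455 and 113 FPKM in V1PAKI and 123, 153, 461, 169 and 190.0 FPKM in Ctrl. The V1PAKI to Ctrl ratio at d10, d16D and d16V was thus 0.203, 3.62 and 0.194 for fibrillar genes, 0.617, 1.03 and 0.757 for type IV genes, and 0.267, 2.70 and 0.594 for the others. COL3A1 carried part of the fibrillar ratio at the day 16 stages, which without it was 2.11 at d16D and 0.316 at d16V. Fibrillar genes made up 16.2 to 17.9% of collagen FPKM in the 4 libraries of d0 and d4, and 66.6% in V1PAKI d16D against 52.3% in Ctrl d16D.

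**Figure D2:**
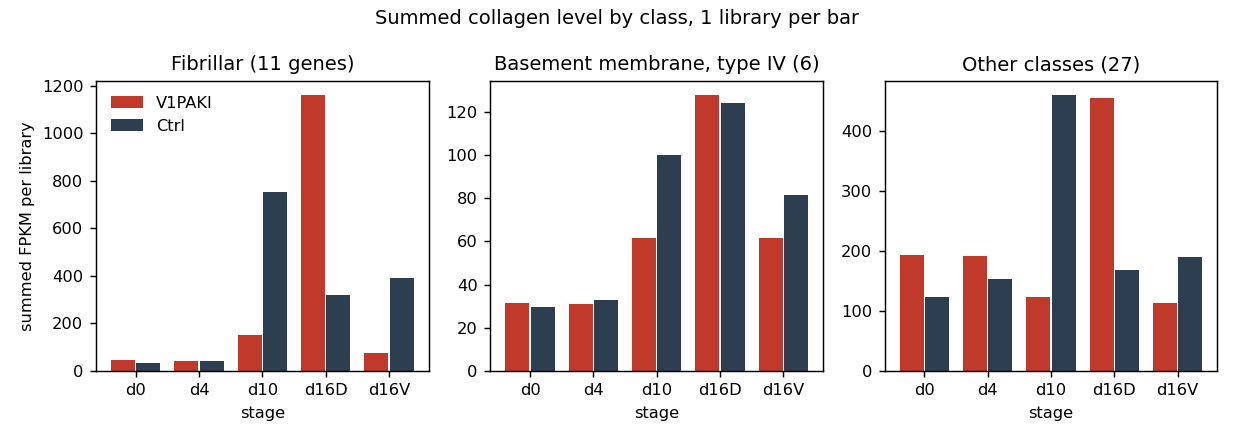
Summed FPKM (y axis, from 0, a scale for each panel) of the fibrillar, type IV and other collagen genes at the 5 stages (x axis), 1 library per bar with V1PAKI left of Ctrl. The V1PAKI d16D bar is above the Ctrl d16D bar for fibrillar genes (1163 FPKM in V1PAKI, 321 FPKM in Ctrl) and close to it for type IV genes (128 FPKM in V1PAKI, 124 FPKM in Ctrl).

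Among the fibrillar genes, COL3A1, which encodes the single chain of type III collagen (chromosome 2, 188974320 to 189012746, plus strand), had the highest mean. It was listed at 0, then at 9.48, 63.7, 701 and 3.44 FPKM in V1PAKI at d0, d4, d10, d16D and d16V, and at 0, 6.32, 379, 102 and 161 FPKM in Ctrl. In V1PAKI d16D it was the gene with the 23rd highest FPKM of the whole library, and in V1PAKI d16V the 8636th. COL1A1, the major chain of type I collagen (chromosome 17, 50183289 to 50201632, minus strand), likewise peaked at d16D in V1PAKI and at d10 in Ctrl, with 14.3, 13.7, 14.8, 151 and 1.65 FPKM in V1PAKI and 7.64, 12.7, 130.1, 31.1 and 44.8 FPKM in Ctrl. Its partner chain COL1A2, named after its values were seen, had 11, 5.90, 13.2, 119 and 1.44 FPKM in V1PAKI and 12.1, 5.90, 84.3, 22.6 and 30.6 FPKM in Ctrl. The 3 genes differed between the lines by less than 1 on the log2 scale at d4, were lower in V1PAKI at d10 and d16V, and were higher in V1PAKI at d16D.

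COL2A1, the type II collagen gene (chromosome 12, 47972965 to 48004554, minus strand), and COL11A1, whose chain co-assembles with type II, ran differently. COL2A1 stood at 4.49, 0.624, 18.6, 53.4 and 43.0 FPKM in V1PAKI and at 1.97, 0.871, 32.7, 107 and 77.0 FPKM in Ctrl. COL11A1 stood at 3.98, 0.878, 9.08, 9.85 and 6.91 FPKM in V1PAKI and at 2.39, 0.819, 6.92, 16.2 and 15.1 FPKM in Ctrl. For both genes the d4 libraries were the lowest of each line, and the V1PAKI value was below the Ctrl value at both day 16 stages. COL2A1 was the most abundant collagen gene of V1PAKI d16V and of Ctrl d16D. The fibrillar genes COL5A3 and COL24A1 stayed below 1 FPKM in all 10 libraries.

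The type IV pair COL4A5 and COL4A6 had close values in the lines at d16D. COL4A5 was measured at 8.27, 7.68, 16.4, 36.1 and 19.1 FPKM in V1PAKI and at 9.38, 8.96, 19.1, 39.0 and 25.1 FPKM in Ctrl over the stages. COL4A6, its head-to-head partner, was measured at 8.88, 6.08, 16, 52.4 and 16.5 FPKM in V1PAKI and at 7.73, 8.12, 20.8, 53.7 and 19.6 FPKM in Ctrl. Both genes were highest at d16D in both lines. The ratio of COL4A6 to COL4A5 stayed between 0.778 and 1.45 in the 10 libraries and was highest at d16D, at 1.45 in V1PAKI and 1.38 in Ctrl.

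COL4A1 and COL4A2, whose chains form the type IV network found in nearly all basement membranes, peaked elsewhere in Ctrl. COL4A1 had 8.54, 9.94, 18.7, 18.4 and 10.9 FPKM in V1PAKI and 8.04, 9.29, 34.8, 12.1 and 15.7 FPKM in Ctrl. COL4A2 had 5.52, 7.03, 10.2, 21.1 and 15.1 FPKM in V1PAKI and 4.21, 6.41, 25.0, 19.5 and 20.9 FPKM in Ctrl. In Ctrl both were highest at d10, where V1PAKI was lower, and at d16D COL4A1 was higher in V1PAKI than in Ctrl. The remaining pair, COL4A3 and COL4A4, known from the basement membrane of the kidney glomerulus, was low throughout. COL4A3 had 0.0418, 0.0157, 0.0882, 0.0445 and 0.0260 FPKM in V1PAKI and 0.121, 0.0576, 0.0561, 0.0347 and 0.0279 FPKM in Ctrl. COL4A4 had 0.183, 0.159, 0.352, 0.0508 and 0.110 FPKM in V1PAKI and 0.315, 0.169, 0.327, 0.0835 and 0.154 FPKM in Ctrl.

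**Figure D3:**
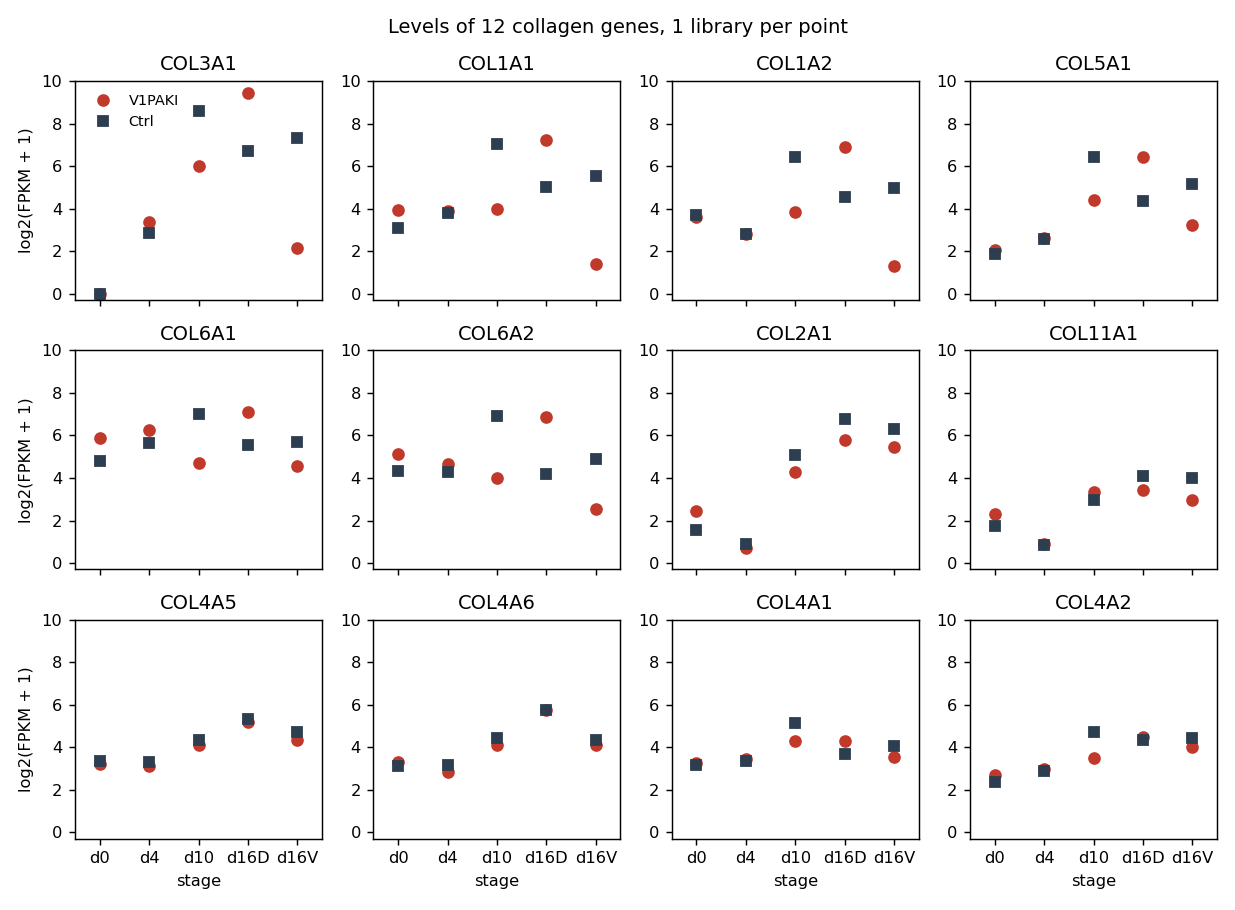
Levels of 12 collagen genes as log2(FPKM + 1) (y axis) at the 5 stages (x axis), with V1PAKI as red circles and Ctrl as dark squares, 1 library per point. The lines part at d10, d16D and d16V for COL3A1 (at d16D, 701 FPKM in V1PAKI and 102 FPKM in Ctrl), while the COL4A6 points at d16D nearly coincide (52.4 FPKM in V1PAKI and 53.7 FPKM in Ctrl).

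Type VI, the collagen of beaded filaments, surrounds mesenchymal and muscle cells, and its genes COL6A1 and COL6A2 were already measured at d0. COL6A1 (chromosome 21, 45981737 to 46005050, plus strand) was at 58.4, 76.6, 25.4, 136 and 22.7 FPKM in V1PAKI and at 26.8, 49.5, 129.6, 46.5 and 50.1 FPKM in Ctrl. COL6A2 was at 34.3, 24, 15.1, 115 and 4.83 FPKM in V1PAKI and at 19.1, 18.6, 120.1, 17.5 and 28.3 FPKM in Ctrl. COL6A3 was at 0.360, 1.19, 3.21, 25.6 and 0.0461 FPKM in V1PAKI and at 0.314, 0.747, 16.8, 2.78 and 3.87 FPKM in Ctrl. All 3 had their highest V1PAKI value at d16D and their highest Ctrl value at d10, as COL3A1 and COL1A1 had. COL6A5 and COL6A6 stayed at or below 0.561 FPKM.

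The multiplexin COL18A1, the source of endostatin and a heparan sulfate proteoglycan of basement membranes, was at 37.5, 34.5, 33.9, 75.4 and 40.8 FPKM in V1PAKI and at 31.8, 30.7, 96.8, 38.8 and 47.7 FPKM in Ctrl. Its relative COL15A1 was at 0.0380, 0.101, 0.787, 6.87 and 0.257 FPKM in V1PAKI and at 0.0189, 0.0611, 3.22, 1.56 and 0.796 FPKM in Ctrl. These 2 genes again had their maximum at d16D in V1PAKI and at d10 in Ctrl. COL18A1 shares exonic bases with SLC19A1 on the other strand (mean 3.79 FPKM), and since strand handling is not given in the sources used here, reads there cannot be told apart. The unclassed COL26A1 stayed between 13.7 and 34.2 FPKM, with 26.6, 24.3, 13.7, 30.3 and 15.9 FPKM in V1PAKI and 16.4, 24, 34.2, 21.9 and 20.4 FPKM in Ctrl.

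Of the FACIT collagens, the 3 genes of type IX, which decorates type II fibrils, had the highest means. COL9A3 was at 13.5, 7.12, 2.57, 5.40 and 0.726 FPKM in V1PAKI and at 5.78, 7.31, 9.88, 4.00 and 3.30 FPKM in Ctrl, and it overlaps TCFL5 on the other strand (mean 6.27 FPKM). COL9A1 was at 4.40, 2.31, 5.53, 3.93 and 10.4 FPKM in V1PAKI and at 3.71, 3.22, 4.23, 8.31 and 8.52 FPKM in Ctrl. COL9A2 was at 2.02, 2.31, 3.07, 13 and 4.65 FPKM in V1PAKI and at 1.07, 2.09, 7.55, 9.09 and 4.94 FPKM in Ctrl. Their 3 profiles differed from each other, and COL9A2 was highest at d16D in both lines.

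The remaining classes were low. COL7A1, the anchoring fibril gene of the skin, was at 1.15, 3.81, 2.1, 4.08 and 3.02 FPKM in V1PAKI and at 0.566, 2.33, 3.05, 3.12 and 4.04 FPKM in Ctrl. Among the transmembrane collagens, COL23A1 was at 4.33, 3.03, 1.47, 8.25 and 1.14 FPKM in V1PAKI and at 3.46, 2.24, 6.46, 1.47 and 1.81 FPKM in Ctrl. COL13A1, which acts at the neuromuscular junction, was at 1.16, 1.66, 2.09, 6.45 and 1.81 FPKM in V1PAKI and at 0.701, 2.22, 6.03, 1.97 and 2.17 FPKM in Ctrl. COL23A1 and COL13A1 both peaked at d16D in V1PAKI and at d10 in Ctrl. COL25A1, a collagen of neurons, was at 1.15, 0.414, 1.02, 1.77 and 0.413 FPKM in V1PAKI and at 1.41, 0.597, 0.823, 1.86 and 0.663 FPKM in Ctrl. Of the network genes, COL8A2 was at 1.41, 0.547, 0.172, 3.44 and 0.0940 FPKM in V1PAKI and at 0.743, 0.524, 3.01, 0.538 and 0.997 FPKM in Ctrl. COL8A2 thus shared the d16D maximum in V1PAKI and the d10 maximum in Ctrl with COL23A1 and COL13A1. COL8A1 was at 0.0204, 0.0182, 0.300, 0.127 and 0.382 FPKM in V1PAKI and at 0.0239, 0.00407, 0.395, 0.0593 and 2.70 FPKM in Ctrl. COL10A1, a marker of hypertrophic cartilage, was at 0.0591, 0.145, 0.0498, 0.146 and 0.0850 FPKM in V1PAKI and at 0.0900, 0.162, 0.0211, 0.0588 and 0.0854 FPKM in Ctrl. COL10A1 and COL28A1 did not reach 1 FPKM in any library. The unclassed COL28A1 was at 0.0405, 0.117, 0.117, 0.131 and 0.232 FPKM in V1PAKI and at 0.0496, 0.0193, 0, 0.166 and 0.137 FPKM in Ctrl. Over all 44 genes, 20 had their highest value in V1PAKI d16D, 7 in Ctrl d10 and 6 in Ctrl d16D. Among the 32 that reached 1 FPKM in 2 or more libraries, these counts were 17, 6 and 5. The same count was not made over all genes, so it is not shown to be particular to collagens.

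Changes between stages were tested with limma on log2(FPKM + 1) in 1 fit of the 15779 genes that reached 1 FPKM in 2 or more libraries, with the lines as blocks and Benjamini-Hochberg adjustment of p-values over that whole set. Of the 44 collagen genes, 32 passed that filter. Of the 12 that did not, COL8A1 and COL17A1 reached 1 FPKM in 1 library each. Nothing in the labels marks separate cultures, so the p-values measure the spread between these lines and stages and not that between repeated cultures.

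At d10 relative to d4, 4 collagen genes rose and none fell (limma, Benjamini-Hochberg adjusted p under 0.05), while 0.919% of all genes tested rose and 0.52% fell. COL2A1 rose by 3.88 ± 0.43 on the log2 scale (SE, adjusted p = 0.0140 in limma) and COL11A1 by 2.27 ± 0.38 (adjusted p = 0.0408). The type IV pair COL4A6 and COL4A5 rose by 1.26 ± 0.21 (limma, adjusted p = 0.0384) and 1.01 ± 0.18 (adjusted p = 0.0439). Each of the 4 was higher at d10 than at d4 in both lines. COL3A1 had a larger estimate, 4.16 ± 1.56, with an adjusted p of 0.262 in limma, and COL12A1, a FACIT collagen, had 1.93 ± 0.40 with an adjusted p of 0.0676. COL3A1 too was higher at d10 than at d4 in both lines. The SE of a gene comes from all stages of the fit, so line differences at d16D and d16V widen it here. A call therefore depends on how alike the lines were over the stages, and not on the size of the change alone. The median log2 change of the collagen genes tested was 0.94, against -0.01 over all genes tested. No collagen gene passed without any 1 of the d4 and d10 libraries, 1 did without either d0 library and 2 did without either d16V library. A library's removal from d4 or d10 leaves a single one there, which is then assumed to vary like the rest. Rescaling each library to TPM called 277 genes higher and 38 lower over the whole table, against 145 and 82 on FPKM.

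At d16D relative to d10, COL4A6 and COL4A5 rose again, by 1.49 ± 0.21 (SE, limma, adjusted p = 0.0236) and 1.04 ± 0.18 (adjusted p = 0.0467). They were the 2 collagen genes called of 32, with 0.551% of all genes tested higher and 0.38% lower. COL2A1 had 1.58 ± 0.43 with an adjusted p of 0.137 in limma. COL3A1 and COL1A1 had 0.78 ± 1.56 and 0.61 ± 1.37, with adjusted p-values of 0.845 and 0.863 in limma, and for both genes the d16D value was above the d10 value in V1PAKI and below it in Ctrl. The d10 libraries enter this comparison and the one before it. Leaving out any 1 of the 10 libraries left 0 or 1 of the 2 calls, and the estimates stayed between 1.37 and 1.61 for COL4A6 and between 0.98 and 1.11 for COL4A5.

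At d16V relative to d16D, COL4A6 fell by 1.51 ± 0.21 on the log2 scale (SE, limma, adjusted p = 0.0369), and no other collagen gene was called, with 0.196% of all genes tested higher and 0.165% lower. Its values were 16.5 FPKM at d16V against 52.4 FPKM at d16D in V1PAKI, and 19.6 FPKM at d16V against 53.7 FPKM at d16D in Ctrl. COL4A5 had -0.75 ± 0.18 with an adjusted p of 0.274 in limma. The COL4A6 call held without either d10 library and was lost without any 1 of the other 8, with estimates between -1.59 and -1.43 throughout.

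No collagen gene was called by limma in the other 3 comparisons. At d4 relative to d0, 1 of 32 was higher and 3 were lower at an unadjusted p under 0.05, as were 6.26% and 5.59% of all genes. After adjustment 0.507% of all genes were called higher and 0.311% lower. At d16V relative to d10, 2 of 32 were higher and 2 lower at an unadjusted p under 0.05, as were 10.9% and 9.02% of all genes, and after adjustment 0.52% of all genes were called higher and 0.292% lower. Between V1PAKI and Ctrl over the 5 stages, 0 of 32 had an unadjusted p under 0.05, while 1.02% of all genes were higher and 1.45% lower at that threshold. After adjustment 0.0% of all genes were called higher and 0.019% lower. The fit averaged the line difference over the stages, and differences that changed direction between stages went into its residual spread. It could thus hardly call genes that were lower in V1PAKI at d10 and d16V and higher at d16D. COL4A5 came nearest there, at -0.21 ± 0.11 (SE, adjusted p = 1.00 in limma), and COL3A1 had -0.89 with a 95% interval from -3.18 to 1.39.

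**Figure D4:**
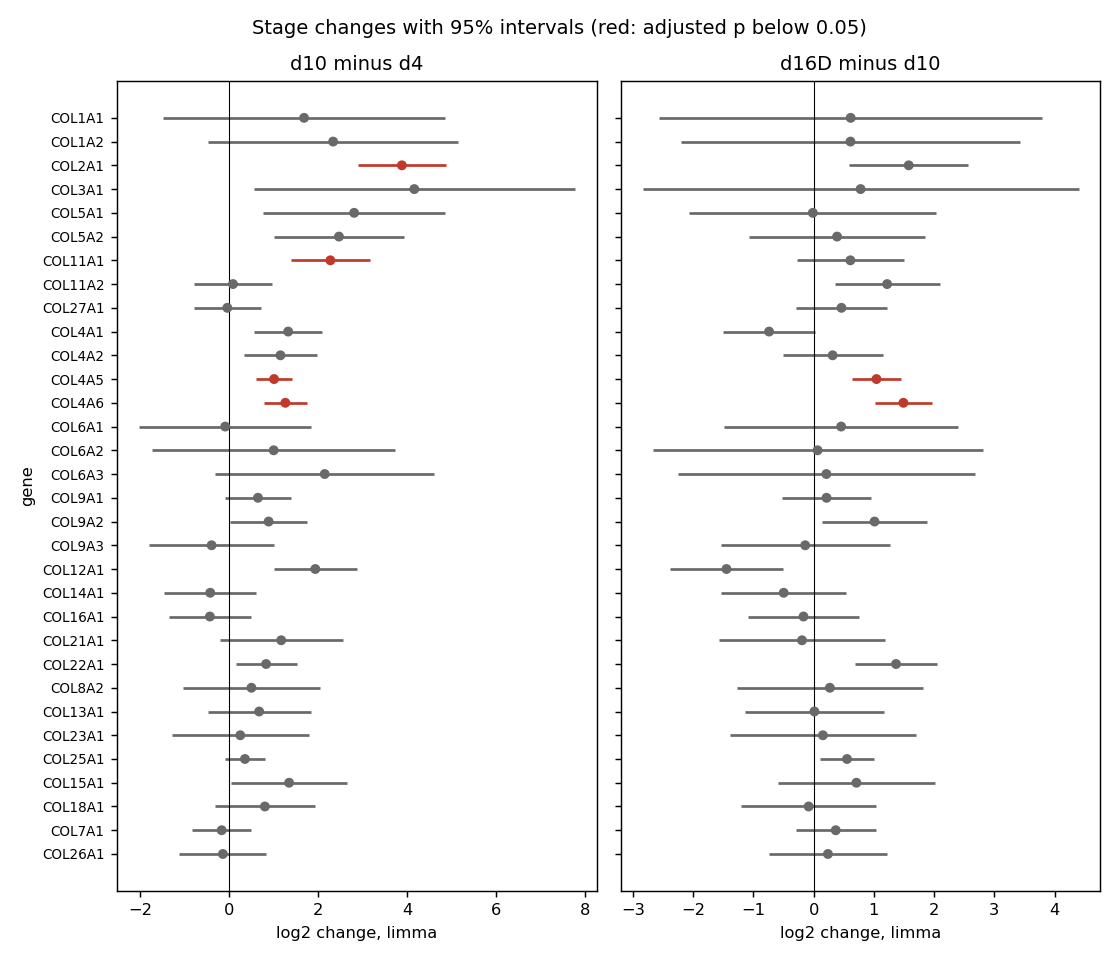
Log2 change (x axis) with its 95% interval from limma for the 32 collagen genes that passed the filter (y axis), for d10 minus d4 on the left and d16D minus d10 on the right, red where the adjusted p was below 0.05. COL4A5 and COL4A6 are red in both panels and have short intervals, while COL3A1 has the widest ones (0.55 to 7.78 on the left).

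Within single stages V1PAKI and Ctrl could be compared without a test only, by a count of differences of 1 or more on the log2(FPKM + 1) scale among genes with 1 FPKM or more in either library. At d0, 2 of 25 collagen genes were higher in V1PAKI, COL6A1 and COL9A3, and none lower, with 3.73% of all genes higher and 0.82% lower. At d4 neither direction held any of 23, with 0.797% and 0.857% of all genes. At d10, none of 32 was higher in V1PAKI and 18 were lower, with 3.78% of all genes higher and 7.45% lower. The 18 held 5 of 8 fibrillar, 1 of 4 type IV and 12 of 20 other collagens, and their largest differences were those of COL1A1 (-3.05), COL6A2 (-2.91) and COL1A2 (-2.58).

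At d16D the direction was the opposite, with 16 of 32 collagen genes higher in V1PAKI and none lower, against 5.5% of all genes higher and 3.46% lower. Those 16 held 6 of 9 fibrillar, 0 of 4 type IV and 10 of 19 other collagens, led by COL6A3 (2.81), COL3A1 (2.76) and COL6A2 (2.65). At d16V, none of 30 was higher and 12 were lower in V1PAKI, with 0.412% of all genes higher and 2.49% lower. The 12 held 6 of 9 fibrillar, 0 of 4 type IV and 6 of 17 other collagens, and COL3A1 (-5.19), COL1A1 (-4.11) and COL1A2 (-3.70) differed most. COL3A1, COL1A1, COL1A2, COL5A1, COL5A2, COL6A1, COL6A2 and COL6A3 were among the genes counted at all 3 stages. How many of all genes were counted at all 3 was not determined, so the joint pattern is not shown to be particular to collagens.

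In V1PAKI, 8 of 28 collagen genes were higher by at least 1 at d10 than at d4 and 2 were lower, with 6.05% of all genes higher and 7.95% lower. In Ctrl 23 of 31 were higher at d10 and none was lower, with 6.59% of all genes higher and 3.09% lower. COL6A1 differed by -1.56 in V1PAKI and by 1.37 in Ctrl, an opposite pair of differences that 0.0871% of all genes showed.

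Between d16D and d10, 22 of 32 collagen genes were higher by at least 1 at d16D in V1PAKI and 1 was lower, with 9.24% of all genes higher and 3.91% lower. In Ctrl 3 of 33 were higher at d16D and 16 were lower, with 7.71% of all genes higher and 7.78% lower. Differences of at least 1 in both lines, with d16D higher in V1PAKI and lower in Ctrl, were found for 12 collagen genes and for 1.42% of all genes. COL3A1 differed by 3.44 in V1PAKI and by -1.88 in Ctrl, COL1A1 by 3.26 in V1PAKI and -2.03 in Ctrl, and COL6A2 by 2.84 in V1PAKI and -2.71 in Ctrl. No type IV gene was among the 12, and COL4A6 differed by 1.65 in V1PAKI and by 1.33 in Ctrl. At d16V relative to d16D, 1 of 32 collagen genes was higher and 18 were lower by at least 1 in V1PAKI, with 2.6% of all genes higher and 8.03% lower, and in Ctrl 2 of 31 were higher and 1 lower, with 1.79% and 1.44% of all genes.

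**Figure D5:**
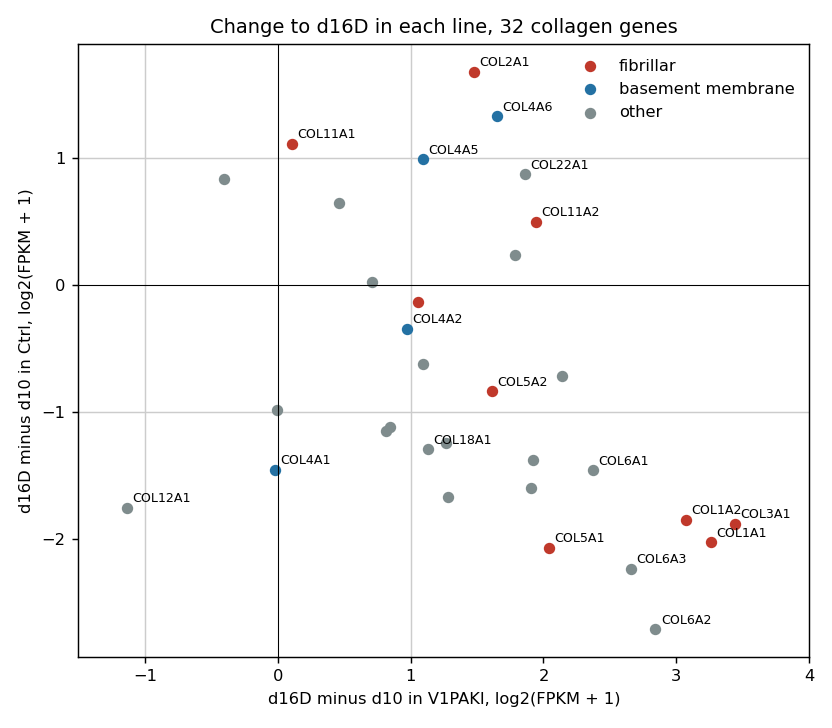
Difference between d16D and d10 on the log2(FPKM + 1) scale in V1PAKI (x axis) and in Ctrl (y axis) for the 32 collagen genes that passed the filter, coloured by class, with grey lines at 1 and -1. COL1A1, COL3A1 and COL6A2 lie at the lower right (for COL6A2, 2.84 in V1PAKI and -2.71 in Ctrl), and COL4A5 and COL4A6 lie at the upper right.

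Of 12 lists of cell type markers, 8 had sums that were lower in V1PAKI than in Ctrl at d10 and d16V and higher at d16D, as the fibrillar sum was. They were the lists of mesenchyme, mesoderm and heart, smooth muscle, neural crest, endoderm and liver, endothelium, epithelium and amnion, and choroid plexus and meninges. Such sums can rest on few genes, and some members went the other way. At d10, FN1 alone had 95.2 FPKM in V1PAKI and 178 FPKM in Ctrl, most of the mesenchyme sum. HAND1 and ACTC1 held most of the mesoderm and cardiac sum at d10. In the mesenchyme list at d16V, THY1 and TWIST2 were higher in V1PAKI and the other members lower. In the neural crest list at d10, SOX10 and PAX3 were higher in V1PAKI and the other members lower. In the choroid plexus list at d16D, OTX2 (28.6 FPKM in V1PAKI, 56.0 FPKM in Ctrl) and ZIC1 (13.1 FPKM in V1PAKI, 27.1 FPKM in Ctrl) were lower in V1PAKI. TTR (417 FPKM in V1PAKI, 68.2 FPKM in Ctrl), AQP1 and FOXC1 were higher, and TTR is also in the endoderm list. In the endoderm list at d16V, FOXA1 and FOXA2 were higher in V1PAKI and the other members lower. The mesenchyme list (8 genes, 7 of them at 1 FPKM or more in both V1PAKI d16D and Ctrl d10) summed to 130 FPKM in V1PAKI against 240 FPKM in Ctrl at d10, 201 FPKM in V1PAKI against 50.3 FPKM in Ctrl at d16D and 21.5 FPKM in V1PAKI against 65.6 FPKM in Ctrl at d16V. The mesoderm and cardiac list had 10 genes, 8 of them at 1 FPKM or more in both V1PAKI d16D and Ctrl d10. It summed to 183 FPKM in V1PAKI against 480 FPKM in Ctrl at d10. At d16D it summed to 173 FPKM in V1PAKI against 13.3 FPKM in Ctrl, and at d16V to 3.46 FPKM in V1PAKI against 29.6 FPKM in Ctrl. At d16V, HAND2, TBX5 and MYH6 were listed at 0 in V1PAKI. In Ctrl d16V, TBX5 was listed at 0 too and MYH6 had 0.121 FPKM. NKX2-5 was higher in V1PAKI at d10 and d16V, and no other member was. The endoderm and liver list (8 genes) summed to 36.2 FPKM in V1PAKI against 221 FPKM in Ctrl at d10, 2377 FPKM in V1PAKI against 416 FPKM in Ctrl at d16D and 22.2 FPKM in V1PAKI against 250 FPKM in Ctrl at d16V, with all 8 at 1 FPKM or more in V1PAKI d16D. The epithelium and amnion list (7 genes) summed to 223 FPKM in V1PAKI against 720 FPKM in Ctrl at d10, 334 FPKM in V1PAKI against 61.6 FPKM in Ctrl at d16D and 28.3 FPKM in V1PAKI against 87.0 FPKM in Ctrl at d16V. The part of these cell types in the collagen differences was not tested. The other 4 lists differed from that pattern at 1 or more stages. The cartilage and notochord list summed to 30.2 FPKM in V1PAKI against 29.9 FPKM in Ctrl at d10, 16.1 FPKM in V1PAKI against 43.3 FPKM in Ctrl at d16D and 16.9 FPKM in V1PAKI against 28.2 FPKM in Ctrl at d16V. The neuron list summed to 40.0 FPKM in V1PAKI against 46.4 FPKM in Ctrl at d10. At d16D it summed to 82.4 FPKM in V1PAKI against 237 FPKM in Ctrl, and at d16V to 128 FPKM in V1PAKI against 151 FPKM in Ctrl. At d16D all 6 of its genes were lower in V1PAKI by at least 1 on the log2 scale, as were 3.46% of all genes. The pluripotency list summed to 594 FPKM in V1PAKI against 667 FPKM in Ctrl at d10, 210.1 FPKM in V1PAKI against 143 FPKM in Ctrl at d16D and 292 FPKM in V1PAKI against 255 FPKM in Ctrl at d16V. The neural progenitor list summed to 356 FPKM in V1PAKI against 344 FPKM in Ctrl at d10, to 510 FPKM in V1PAKI against 791 FPKM in Ctrl at d16D, and to 838 FPKM in V1PAKI against 827 FPKM in Ctrl at d16V.

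Genes that act on collagens were described from lists of the pathway, to be read against the 0.919% of all genes that rose and the 0.52% that fell at d10 relative to d4. Of 19 measured assembly enzymes and chaperones, 1 rose at d10 relative to d4 and none fell, namely COLGALT2, which glycosylates collagen, by 1.42 ± 0.21 (SE, limma, adjusted p = 0.0292). Of 13 other basement membrane genes, 2 rose and none fell in that comparison, the laminin chain LAMA1 by 1.10 ± 0.19 (limma, adjusted p = 0.0415) and the laminin binder NID1 by 1.19 ± 0.21 (adjusted p = 0.0430). Of 9 matrix metalloproteinases and their inhibitors, the inhibitor TIMP3 rose by 3.0 ± 0.50 (limma, adjusted p = 0.0405) and none fell. None of 12 fibril processing and crosslinking genes, 5 collagen receptors or 5 fibril-associated proteoglycans was called in any of the 6 comparisons, in lists so short that shares like those of all genes leave less than 1 call to each.

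Lumican, LUM, a small proteoglycan that binds fibrillar collagen, stood at 0, 4.10, 51.6, 92.1 and 1.12 FPKM in V1PAKI and at 0, 4.13, 99.1, 15.4 and 40.2 FPKM in Ctrl. Decorin, DCN, a related proteoglycan, stood at 0, 0.0940, 2.1, 22.2 and 0.106 FPKM in V1PAKI and at 0, 0.0312, 11.9, 3.26 and 3.91 FPKM in Ctrl. Like COL3A1, both were lower in V1PAKI at d10 and d16V and higher at d16D. At d16D, 4 of 5 proteoglycans and 6 of 9 metalloproteinases and inhibitors were higher in V1PAKI by at least 1, against 4 of 19 assembly enzymes and chaperones. So were 4 of 13 other basement membrane genes, 1 of 10 fibril processing and crosslinking genes and 1 of 5 collagen receptors. None of these lists held a gene lower by at least 1. Of all genes, 5.5% were higher and 3.46% lower there.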

How the data were processed

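The authors deposited FPKM values for 42335 gene symbols in 10 libraries, and all 10 columns were matched to samples by name, with 0 columns of no sample. Per the submitters' processing notes, the tools were Cufflinks, HISAT2 2.1.0 and cutadapt 1.18, and the genome build was GRCh38. For the annotation and for the handling of strand, nothing is given in the sources used here. The low FPKM values held no whole-read steps, so depth is unknown and no counting interval or floor is given. An exact 0 can be a failed estimate, which is why such genes are only called listed at 0. The libraries all differed in their values.

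The scale of analysis was log2(FPKM + 1), whose pseudocount of 1 understates the change of low genes. Genes that reached 1 FPKM in 2 or more libraries were fitted with limma 3.58.1 (eBayes with an intensity trend) in R 4.3.3, with stage and line as terms, so that 4 residual degrees of freedom, 7.77 after moderation, gave the spread. Tests were two-sided, with Benjamini-Hochberg adjustment over 15779 genes and a threshold of 0.05. The script was tested on simulated data. Libraries of a single stage or line were compared without a test, by differences of at least 1 on the log2 scale. Alternatives were another pseudocount, other filters, other scalings, other variance models and leaving out each library.

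Values in every library are given for collagen genes called in a comparison, for the 3 highest by mean in each class and for the type IV pairs, and COL1A2 and other genes beyond that rule were chosen after their values were seen. The members, classes and lists were chosen with earlier results of these data known. A gene of the companion lists called at d16V relative to d10 is not reported here. Gene coordinates came from a GENCODE annotation of GRCh38, which matched 39994 symbols.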

Additional observations from a re-analysis of the deposited data

Results flagged for a closer look

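Between d10 and d16D, 12 collagen genes differed in opposite directions in the lines, as did 226 of the 15943 genes counted (1.42%). Each difference was at least 1 on the log2(FPKM + 1) scale, with d16D higher in V1PAKI and lower in Ctrl. The V1PAKI difference minus the Ctrl difference was 5.32 for COL3A1, 5.29 for COL1A1, 4.93 for COL1A2 and 4.11 for COL5A1 among the fibrillar genes. It was 5.55 for COL6A2, 4.89 for COL6A3 and 3.83 for COL6A1, the chains of type VI. It was 3.50 for COL23A1, 3.30 for COL8A2, 2.96 for COL21A1, 2.51 for COL13A1 and 2.43 for COL18A1. Between d4 and d10 COL6A1 stood the other way, with d10 relative to d4 at -1.56 in V1PAKI and at 1.37 in Ctrl, which gives -2.93, as 0.0871% of all genes did. With 1 library per line and stage, none of these 13 differences was tested.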

How the results depend on the processing

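With 1 library per line and stage, the calls rest on 4 residual degrees of freedom. The 4 collagen genes called at d10 relative to d4 became 0 with no filter, when all 42335 genes were tested, and ranged from 0 to 6 when single libraries were left out. The 2 called at d16D relative to d10 became 1 with a pseudocount of 0.1 and 1 without the intensity trend (COL4A6 in both), 0 with no filter, and 0 to 1 when single libraries were left out. The single call at d16V relative to d16D became 0 with a pseudocount of 0.1, with no filter and with a filter at 5 FPKM, and 0 to 1 when single libraries were left out. The cause was not tested. Without the replicate block (the line left out of the stage fits) the counts of calls were 5, 2 and 1 in these comparisons and 0 in the other 3. TPM and median-of-ratios scaling kept the counts at 4, 2 and 1 and the same genes, although the median change of all genes at d16V relative to d10 was 0.14 in TPM against 0.04 in FPKM. Removing a trend with GC content and length, chosen after seeing the data, gave 6, 3 and 1 calls, and over all genes 307 higher and 317 lower at d10 relative to d4 and 150 higher and 182 lower at d16D relative to d10. Of the V1PAKI to Ctrl ratios, the fibrillar one without COL3A1 was 2.11 at d16D and 0.316 at d16V. The collagen genes higher in V1PAKI at d0 were 1 in TPM and 0 after median-of-ratios scaling, against 2 in FPKM. Those lower at d0 were 1 with a pseudocount of 0.1, in TPM and after median-of-ratios scaling, and those lower at d16D were 2 with a pseudocount of 0.1 and 1 in TPM, against 0 each. No called value changed its sign under any alternative run. For single genes, 65 calls were lost, 10 were gained and 2487 values kept their side of the threshold over all alternatives. Calls could be lost only from the 4, 2 and 1 of the main setting, each counted once per alternative. Most of the 2487 values belonged to genes not called in the main setting, so they do not measure how stable the calls were.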

Other observations

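Partner chains of a trimer kept their ratios to different degrees over the 10 libraries. COL1A1 to COL1A2, the chains of type I collagen, ran from 0.629 (Ctrl d0) to 2.32 (V1PAKI d4), and COL4A1 to COL4A2 from 0.617 (Ctrl d16D) to 1.91 (Ctrl d0). COL6A1 to COL6A2, the chains of type VI, ran from 1.08 (Ctrl d10) to 4.70 (V1PAKI d16V), and COL6A3 to COL6A1 from 0.00200 (V1PAKI d16V) to 0.188 (V1PAKI d16D). COL3A1 and COL2A1 belong to different collagen types and are not partner chains. Their ratio, COL3A1 to COL2A1, was 13.1 in V1PAKI d16D against 0.954 in Ctrl d16D, and 0.0799 in V1PAKI d16V against 2.1 in Ctrl d16V.

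COL14A1, a FACIT collagen of tendon and skin named here after its values were seen, was highest in the undifferentiated wild-type cells. It stood at 4.10, 3.71, 3.19, 3.17 and 1.41 FPKM in V1PAKI and at 8.40, 4.37, 2.33, 0.681 and 1.69 FPKM in Ctrl over the 5 stages. COL12A1, its close relative, was at 4.56 FPKM in V1PAKI and 4.81 FPKM in Ctrl at d10, and at or below 2.52 FPKM in the other 8 libraries.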
